A study of Mus musculus with 6 samples.

Results

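The regions described here are the 7318 short runs of the mouse genome in which chromatin states 3 or 5 and chromatin states 4 or 6 lie side by side, called mixed runs below. They were selected on the measured state numbers of a segmentation of the genome of hematopoietic stem cells (HSCs) into 18 states in bins of 200 bp. Touching segments of states 3 to 6 on chromosomes 1 to 19 were joined into 15431 runs, and a run was a member when it was shorter than 4000 bp and held at least 1 bin of state 3 or 5 and at least 1 bin of state 4 or 6. Members made up 47.4% of the runs and 54.2% of their bases, or 16.2 Mb. The other runs were 3685 short runs of states 3 and 5 only, 3729 short runs of states 4 and 6 only, and 699 runs of 4000 bp or more.

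The series consists of 6 libraries from bone marrow HSCs of C57BL/6 mice: 2 HIRA KO H3.3 ChIP libraries, 1 HIRA KO input, 2 WT H3.3 ChIP libraries and 1 WT input. Per the labels, the deletion of Hira was induced in the hematopoietic system by 2 intraperitoneal injections of poly(I:C), an inducer of interferon, at 20 ug each, and the cells were sorted on day 7. The same treatment text stands on the WT and the HIRA KO samples, and neither the driver of the deletion nor the age of the mice was found there. A single state map, labelled by its file name as WT HSC H3.3, was analysed, and it has no HIRA KO counterpart, no replicates and no read depth. All values below therefore describe this map, and the spread given is the SD over autosomes, which measures how much chromosomes vary and says nothing about variation among mice.

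H3.3 is a histone H3 variant that is placed in chromatin outside DNA replication, by the HIRA complex at genes and regulatory elements and by DAXX with ATRX at repetitive DNA. Gene starts turn their nucleosomes over quickly and are known as sites of high H3.3. The nucleosomes on either side of an active start differ, since transcription runs into the gene on one side and upstream antisense transcription is short-lived on the other. A segmentation assigns each bin the state whose combination of signals it resembles most, and the states of this map carry numbers and track colours but no names.

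Mixed runs lay mostly at the starts of protein-coding genes, and 6 promoters taken by a rule from among them show the range of sequence they cover. Sequences come from the RefSeq table of GRCm38.p6 and run 5′ to 3′ along the gene from 250 bases before the start to 50 bases after it. Capitals mark matches, on either strand, to the 12 short motifs described with the promoter sequences further on. Mecom, a transcription factor gene required by HSCs, and Isg15, an interferon-induced ubiquitin-like modifier, are the first members in mixed runs of the HSC and interferon gene lists described further on. Their promoters have few CpG sites, 9 and 6 in 300 bases. Ppia, the housekeeping gene of cyclophilin A, and Ubn1, which encodes a subunit of the HIRA complex, are the first such members of the housekeeping and chaperone lists. Their promoters are CpG-rich, with 43 and 36 such sites. N4bp2, which encodes a binding partner of the ubiquitin ligase NEDD4, and Foxa3, a forkhead factor known from liver, are shown because their runs switched most often between the state pairs.
Mecom promoter, chr3:30013155-30013454, minus strand: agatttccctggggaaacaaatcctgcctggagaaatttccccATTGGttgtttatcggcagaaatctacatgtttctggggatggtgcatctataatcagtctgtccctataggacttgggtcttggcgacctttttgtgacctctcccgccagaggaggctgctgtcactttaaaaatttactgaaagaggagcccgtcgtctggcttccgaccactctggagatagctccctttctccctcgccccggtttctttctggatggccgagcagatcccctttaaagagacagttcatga
Isg15 promoter, chr4:156200769-156201068, minus strand: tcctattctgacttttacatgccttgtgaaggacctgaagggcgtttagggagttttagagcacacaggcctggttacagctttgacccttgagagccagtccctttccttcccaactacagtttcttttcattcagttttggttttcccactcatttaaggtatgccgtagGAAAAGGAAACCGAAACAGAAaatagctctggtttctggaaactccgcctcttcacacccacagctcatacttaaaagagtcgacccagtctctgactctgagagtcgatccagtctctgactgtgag
Ppia promoter, chr11:6415617-6415916, plus strand: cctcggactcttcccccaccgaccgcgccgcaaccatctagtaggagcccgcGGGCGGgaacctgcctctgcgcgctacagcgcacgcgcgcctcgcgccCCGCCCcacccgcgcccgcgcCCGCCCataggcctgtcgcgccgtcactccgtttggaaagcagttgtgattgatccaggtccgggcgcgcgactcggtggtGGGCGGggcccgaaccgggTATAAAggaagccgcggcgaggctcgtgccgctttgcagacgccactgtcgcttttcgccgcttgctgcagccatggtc
Ubn1 promoter, chr16:5049807-5050106, plus strand: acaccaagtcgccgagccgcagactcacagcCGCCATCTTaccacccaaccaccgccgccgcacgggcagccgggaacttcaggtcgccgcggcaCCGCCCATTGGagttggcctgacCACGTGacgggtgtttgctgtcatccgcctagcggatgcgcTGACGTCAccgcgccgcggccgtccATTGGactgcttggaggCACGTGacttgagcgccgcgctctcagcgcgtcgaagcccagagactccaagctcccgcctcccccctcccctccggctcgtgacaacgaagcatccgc
N4bp2 promoter, chr5:65763271-65763570, plus strand: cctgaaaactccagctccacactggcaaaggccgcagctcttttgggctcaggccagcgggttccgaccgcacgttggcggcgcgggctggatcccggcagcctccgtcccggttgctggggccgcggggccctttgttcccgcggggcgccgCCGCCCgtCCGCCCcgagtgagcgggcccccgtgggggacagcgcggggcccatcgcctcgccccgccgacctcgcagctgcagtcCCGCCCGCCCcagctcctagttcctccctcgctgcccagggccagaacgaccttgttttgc
Foxa3 promoter, chr7:19023490-19023789, minus strand: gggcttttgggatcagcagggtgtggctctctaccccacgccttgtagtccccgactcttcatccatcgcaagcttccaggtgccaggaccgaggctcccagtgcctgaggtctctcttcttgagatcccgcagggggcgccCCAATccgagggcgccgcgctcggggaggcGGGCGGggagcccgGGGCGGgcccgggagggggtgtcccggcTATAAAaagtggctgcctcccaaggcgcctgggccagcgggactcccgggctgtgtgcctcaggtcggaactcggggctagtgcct

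These 6 starts lay in each of the states 3 to 6. The Mecom start lay in state 5, 997 bp into a run of 3400 bp whose states read 5-3-5-6-4-6-5 along the gene. The Isg15 start lay in state 3, in a run of 1400 bp that read 3-4-6, with 800 bp of state 3 first. The Ppia start lay in state 6 of a run of 3200 bp that read 3-5-6-4-3-4. The Ubn1 start lay in state 5 of a run of 3400 bp that read 6-4-6-5-3-6. The motif matches differed as much as the runs did. The Isg15 promoter held 3 overlapping matches to GAAANNGAA, the spacing of an interferon response element, and the Mecom promoter held 1 CCAAT box. The Ppia and N4bp2 promoters each held 4 matches to GGGCGG, the core bound by SP and KLF factors. The Ubn1 promoter held 2 E-boxes of MYC and USF, 2 CCAAT boxes, and 1 match each for YY1, CREB or ATF, and SP and KLF.

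The mixed runs were longer than the runs with a single pair, and most of them contained 1 change of pair. Their median length was 2200 bp, with quartiles of 1800 and 2600 bp, against 1600 bp for runs of states 3 and 5 only and 1200 bp for runs of states 4 and 6 only. The share of runs that held both pairs was 4.69% at 400 bp, 36.9% at 1200 bp, 63.3% at 2000 bp and 77.7% at 3000 bp. At the length limit, 115 of 144 runs of 3800 bp (79.9%) and 94 of 121 runs of 4000 bp (77.7%) held both pairs, so that runs just inside and just outside it were alike in this respect. Of all runs of 4000 bp or more, 82.7% held both pairs. Because the rule sets both the content and the upper length, these lengths are a description.

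**Figure D1:**
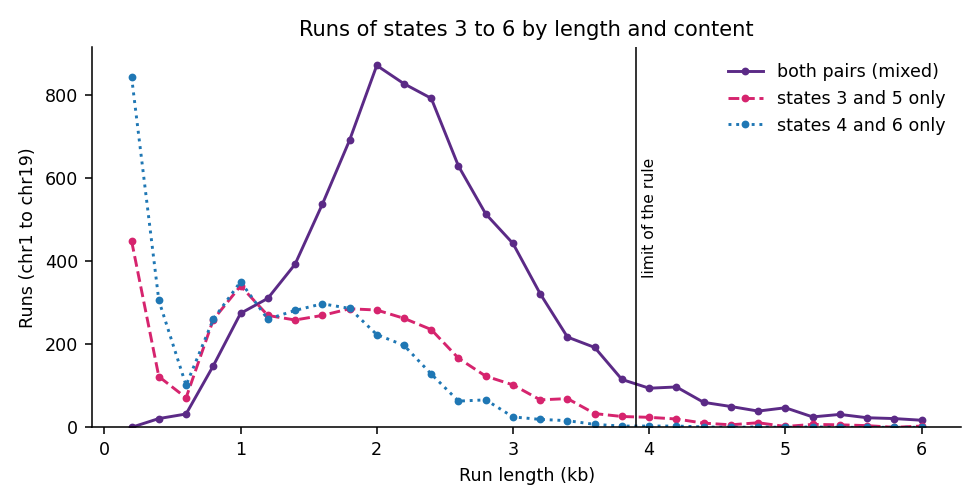
Number of runs of states 3 to 6 on chromosomes 1 to 19 (vertical axis) at each length in kb (horizontal axis), for mixed runs, runs of states 3 and 5 only and runs of states 4 and 6 only; the vertical line marks the 4000 bp limit. Mixed runs peak at 870 runs of 2000 bp, whereas both other classes have their highest count at 1 bin, with 448 runs of states 3 and 5 only and 842 runs of states 4 and 6 only.

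Mixed runs were spread over all autosomes. Their number per autosome averaged 385.2 ± 121.8 (SD, 19 autosomes) and their density 3.03 ± 0.85 per Mb, with the lowest density on chromosome 14 (2.00 per Mb) and the highest on chromosome 11 (5.01 per Mb). Their share of all runs varied less, at 47.3 ± 2.88%, from 42.4% to 51.0%. The median distance from a mixed run to the next run of states 3 to 6 was 23.8 kb, and 7.49% lay within 2 kb of another run, against 12.4% for runs of states 3 and 5 only.

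Within the runs the pairs met in a preferred way. Of the 7318 mixed runs, 5060 (69.1%) had 1 switch between the pairs, with a mean of 69.2 ± 2.40% (SD, 19 autosomes). In 1280 runs (17.5%) a 3/5 part lay between 4/6 parts, and in 646 runs (8.83%) a 4/6 part lay between 3/5 parts. The remaining 332 runs (4.54%) had 3 or 4 switches. All 4 states occurred in 3132 runs (42.8%). The commonest order was 5-3-4-6 or its mirror, in 529 runs, of which 285 read 5-3-4-6 along the chromosome and 244 read 6-4-3-5. The next were 5-6 in 333 runs, 5-3-5-6 in 280 and 5-3-6 in 259.

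States 3 and 4 lay mostly inside the runs, and states 5 and 6 lay at the edges more often. The share of segments at an edge was 23.4% for state 3, 24.5% for state 4, 54.7% for state 5 and 63.9% for state 6. State 6 formed 42.6% of the outer edges of mixed runs and state 5 formed 32.7%, against 12.7% for state 3 and 11.9% for state 4. By bases the order differed, since state 3 took 29.7% of them, state 6 took 25.9%, state 4 took 22.6% and state 5 took 21.8%. At the 9942 places where a 3/5 part touched a 4/6 part, state 3 met state 4 in 3762 cases (37.8%) and state 5 met state 6 in 3490 (35.1%). State 3 met state 6 in 1869 cases (18.8%), and state 4 met state 5 in 821 (8.26%). Thus 72.9% of the contacts joined states that share a colour in the deposited track, 3 with 4 or 5 with 6. The median run had 1000 bp of each pair and 50% of its bins in states 3 or 5, with quartiles of 33.3% and 69.2%. In 1187 runs (16.2%) either pair was present with only 1 bin, and all of these had 1 switch. An inner part, with the other pair on both of its sides, was never shorter than 400 bp in the 2258 runs with 2 or more switches.

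The states outside the runs, which the rule did not use although they come from the same map, followed the side of the run they touched. In the 5060 runs with 1 switch, the 3/5 side touched state 1 or 16 in 77.04% of cases (77.4 ± 2.84%, SD, 19 autosomes, from 70.1% to 82.6%) and state 2 or 17 in 15.0%. The 4/6 side touched state 2 or 17 in 78.7% (78.5 ± 2.76%, from 73.5% to 83.6%) and state 1 or 16 in 2.93%. The commonest pair of flanks was state 16 beside the 3/5 side with state 17 beside the 4/6 side, in 1909 runs (37.7%), followed by 16 with 2 in 517 runs, 1 with 17 in 466 and 17 with 17 in 397.

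The outermost state went with the kind of flank within each pair. An outer edge of state 3 lay beside state 1 in 42.2% and beside state 16 in 36.9% of 1864 edges, whereas an outer edge of state 5 lay beside state 16 in 70.7% of 4790 edges. An outer edge of state 4 lay beside state 2 in 49.6% and beside state 17 in 37.8% of 1744 edges, and an outer edge of state 6 lay beside state 17 in 68.4% of 6238 edges. Runs with symmetric patterns kept these flanks on both ends. Where a 3/5 part lay between 4/6 parts, 80.1% of the flanks were state 2 or 17, and where a 4/6 part lay between 3/5 parts, 82.2% were state 1 or 16. Runs of a single pair had similar flanks, with 79.3% in state 1 or 16 for runs of states 3 and 5 only and 71.7% in state 2 or 17 for runs of states 4 and 6 only.

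Mixed runs usually differed between their ends. The same state lay on both flanks of 1446 mixed runs (19.8%, Wilson interval at 95% confidence 18.9% to 20.7%), against 43.9% of runs of states 3 and 5 only, 46.6% of runs of states 4 and 6 only and 22.7% of runs of 4000 bp or more. Among mixed runs the share was 10.8% with 1 switch, 45.3% where 3/5 lay between 4/6, and 43.3% where 4/6 lay between 3/5. These intervals cover counting error only, and runs that lie near each other are not independent.

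The sides also differed at set distances from the switch. The segment beside the 3/5 side had a median length of 600 bp and that beside the 4/6 side one of 1400 bp. Their upper quartiles were 1200 and 3800 bp, so bins between 2 and 4 kb from the switch can lie inside the touching segment. Between 2 and 4 kb from the switch, state 16 covered 14.3% of bins on the 3/5 side and 8.70% on the 4/6 side, and state 8 covered 9.18% on the 3/5 side and 18.7% on the 4/6 side. Between 8 and 10 kb, state 16 was at 7.46% on the 3/5 side and 6.81% on the 4/6 side, and state 8 at 17.4% and 23.3%. State 17 was frequent on both sides between 2 and 4 kb, at 44.8% on the 3/5 side and 49.1% on the 4/6 side.

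**Figure D2:**
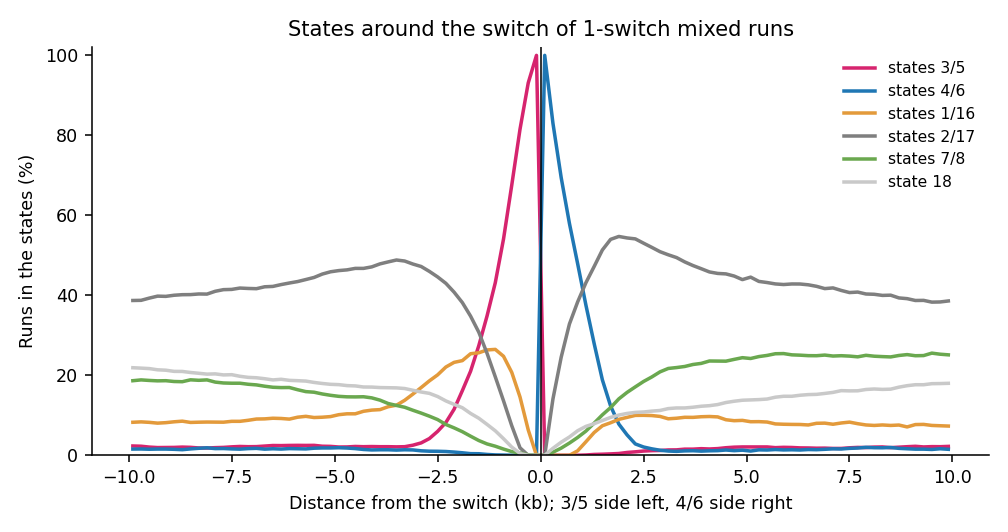
Share of the 5060 mixed runs with 1 switch (vertical axis, %) that are in each group of states at a given distance in kb from the switch (horizontal axis), with the 3/5 side on the left and the 4/6 side on the right. The bins beside the switch are fixed by the rule; further out, states 1 and 16 rise beside the 3/5 side, and states 2 and 17 and states 7 and 8 rise sooner on the 4/6 side, where state 8 covers 18.7% of bins between 2 and 4 kb, against 9.18% on the 3/5 side.

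Gene starts gave an annotation that was independent of the map. Of 20661 autosomal protein-coding genes, 16456 had an entry in the promoter table, on 18 autosomes, and these carried 20084 starts. A start lay in a mixed run for 5312 genes (32.3%), in a run of states 3 and 5 only for 1550 (9.42%), in a run of states 4 and 6 only for 1372 (8.34%) and in a run of 4000 bp or more for 590 (3.59%). Seen from the runs, 4828 of the 7121 mixed runs on those autosomes (67.8%, Wilson interval 66.7% to 68.9%) held a start, against 40.98% of runs of states 3 and 5 only, 34.7% of runs of states 4 and 6 only and 76.4% of runs of 4000 bp or more. Over autosomes the share in mixed runs averaged 67.2 ± 6.62% (SD, 18 autosomes), from 44.9% on chromosome 15 to 74.2% on chromosome 2.

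Length went with this difference between the classes. Among runs of 1000 to 1200 bp a start lay in 17.8% of mixed runs, 15.2% of runs of states 3 and 5 only and 21% of runs of states 4 and 6 only. Among runs of 2200 to 2400 bp a start lay in 79.1% of mixed runs, 71.8% of runs of states 3 and 5 only and 79.1% of runs of states 4 and 6 only. At equal length, mixed runs thus held a start about as often as runs of states 4 and 6 only and somewhat more often than runs of states 3 and 5 only, whose interval at 2200 to 2400 bp was 67.6% to 75.7%, against 77.1% to 81.1% for mixed runs. Mixed runs with a start had a median length of 2400 bp, and those without one 1800 bp.

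The start did not sit in the middle of the run. Over the 4302 mixed runs with starts on 1 strand, the start, or the most upstream of several, lay at a median of 37.3% of the run, with 830 bp of the run upstream and 1402 bp downstream of it. It lay in state 6 in 35.6% of runs, although state 6 made up 25.9% of the bases of mixed runs. State 3 held 22.1% of the starts and 29.7% of the bases, state 5 held 21.8% of both, and state 4 held 20.5% of the starts and 22.6% of the bases.

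The order of the parts followed the direction of the gene in about 65% of runs. Among the 2886 mixed runs with 1 switch and starts on 1 strand, the 3/5 part lay upstream of the 4/6 part in 1882 (65.2%, Wilson interval 63.4% to 66.9%) and downstream in 1004 (34.8%). The share with the 3/5 part upstream was 65.4% for genes on the plus strand and 65.0% for genes on the minus strand. It averaged 65.3 ± 4.73% (SD, 18 autosomes), from 55.3% on chromosome 1 to 75% on chromosome 10, and was above 50% on 18 of 18 autosomes. Among the 2698 of these runs that held no end of another coding gene record, the share was 65.4%. The promoter table lacks some genes, so a start on the other strand could be missed in part of the runs.

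In these runs the start lay at a similar place in either order, at a median of 37.6% of the run with the 3/5 part upstream and 36.5% with it downstream. Which pair held the start thus depended on the grouping by order. With the 3/5 part upstream the start lay in state 3 or 5 in 59.0% of runs, and with the 3/5 part downstream in 33.5%. The median start lay 796.5 bp from the upstream edge with the 3/5 part upstream and 776 bp from it with the 3/5 part downstream.

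**Figure D3:**
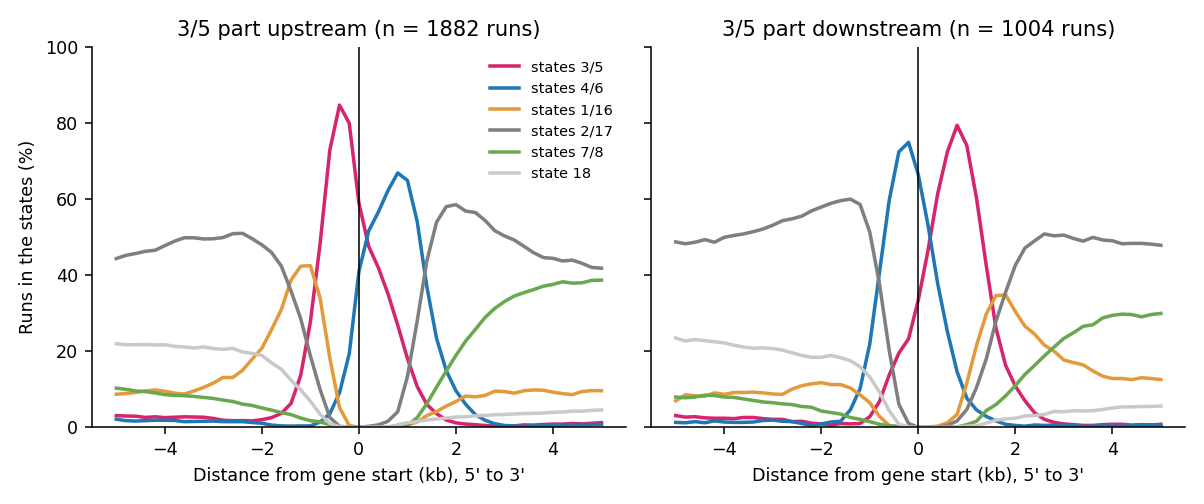
Share of mixed runs with 1 switch and starts on 1 strand (vertical axis, %) in each group of states by distance in kb from the gene start, 5′ to 3′ along the gene (horizontal axis), for 1882 runs with the 3/5 part upstream (left) and 1004 runs with the 3/5 part downstream (right). States 1 and 16 rise next to the 3/5 part in both panels, upstream of the start on the left and downstream of it on the right, while states 7 and 8 rise downstream of the start in both.

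The state next to the 4/6 side went with the order. With state 8 there, the 3/5 part was upstream in 93.3% of 252 runs (Wilson interval 89.5% to 95.8%), and with state 2 in 73.4% of 504. With state 17 there, it was upstream in 64.5% of 1756. With state 18 beside the 4/6 side the order was the opposite, with the 3/5 part upstream in 19.3% of 207 runs (14.5% to 25.2%) and downstream in 167 of them. These states themselves differed with gene direction. In the 4302 mixed runs with starts on 1 strand, states 7 and 8 took 34.3% at 4 kb downstream of the start and 8.02% at 4 kb upstream. State 18 took 3.88% downstream and 21.7% upstream at that distance. Grouping by state 8 or 18 can therefore select for gene direction by itself, and its part in these shares was not tested. Beside the 3/5 part the shares differed less: 69.4% of 1721 runs with state 16 there, 59.1% of 477 with state 1 and 59.5% of 383 with state 17. Runs of 4000 bp or more with 1 switch had the 3/5 part upstream in 74 of 122 cases (60.7%, 51.8% to 68.9%), an interval that covers the share of mixed runs.

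**Figure D4:**
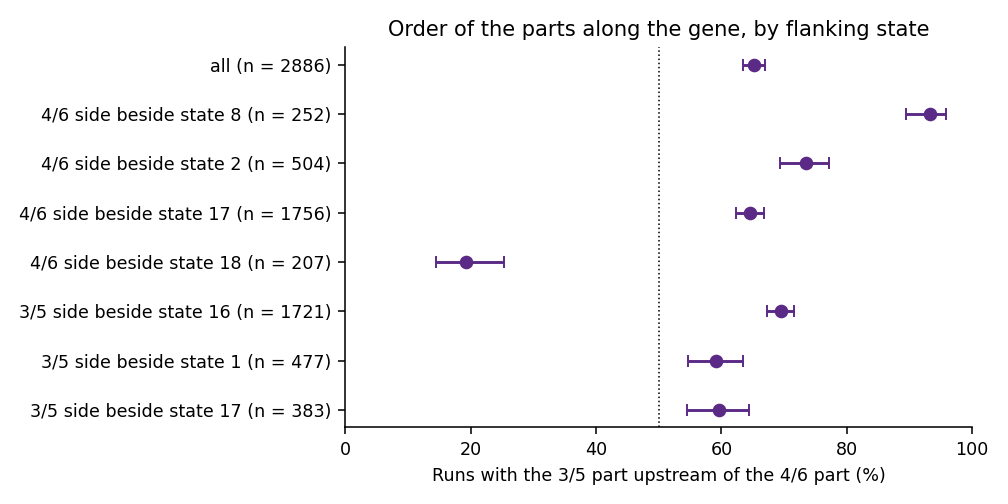
Share of mixed runs with 1 switch and starts on 1 strand that have the 3/5 part upstream of the 4/6 part (horizontal axis, %), for all such runs and by the state that touches either side; points are shares, bars are 95% Wilson intervals and the dotted line marks 50%. All groups lie above 50% except runs with state 18 beside the 4/6 side, at 19.3%.

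Some mixed runs served starts on both strands. In 526 runs (10.9% of those with a start) starts lay on both strands, and in 411 of these (78.1%) they were head to head, with the minus-strand start on the left and a median of 160 bp between the nearest starts. A 3/5 part between 4/6 parts was more frequent among them, at 149 of 526 runs (28.3%), against 18.6% of all runs with a start. Read the other way, among runs with a start, starts on both strands were found in 16.6% with 3/5 between 4/6 (Wilson interval 14.3% to 19.1%). The share was much the same with 3 or more switches, at 16.18% (12.28% to 21.02%), so it was not particular to 3/5 between 4/6. It was 9.10% with 1 switch (8.15% to 10.2%) and 9.13% with 4/6 between 3/5. An example of starts on both strands is the run of 3800 bp at Glb1l and Stk16, which had 3 switches. Their starts at 75210755 and 75210829 on chromosome 1 point away from each other, and both lay in state 4. Glb1l encodes a beta-galactosidase-like protein and Stk16 a serine and threonine kinase. Foxa3 and Sympk, the symplekin gene of mRNA 3′ end processing, likewise shared a run of 3800 bp, with 4 switches. The Foxa3 start lay in state 6 and the Sympk start in state 4.

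The share of runs with a start also went with the number of switches. It was 64.5% with 1 switch, 71.8% with 3/5 between 4/6, 77.2% with 4/6 between 3/5 and 84.5% with 3 or 4 switches, and runs with more switches are also longer. The 10 genes taken for most switches all had starts in runs with 4 switches. N4bp2, Rab3gap2, Ybx1, Cnot2, Mia2, Tab2 and Fbxl20 had 4/6 parts at both ends of the run, and Foxa3, Sympk and Stim1 had 3/5 parts at both ends. Ybx1, which encodes a Y-box binding protein, had a start 1288 bp into a run of 3600 bp that read 6-5-3-6-4-3-5-3-4-6. Stim1, the calcium sensor of the endoplasmic reticulum, had a start in state 6 of a run of 3400 bp that read 3-6-3-4-6-3. The longest runs taken by the rule, of 3800 bp each, held starts of Ptp4a1, a phosphatase gene, and Klf7, a Krüppel-like factor gene, besides Glb1l and Stk16. The runs at Ptp4a1 and Klf7 both read 5-3-5-3-4-6 along the gene with state 16 upstream.

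Nearly 1 in 3 mixed runs held no start from the table. Of these 2293 runs (32.2%), 810 lay at an end of a coding gene that had no promoter entry, 101 at another end of a coding gene and 156 at the start of a long noncoding RNA. A further 610 lay inside a coding gene record and 616 outside all of them, at a median of 15.1 kb from the nearest gene end. The 1226 runs away from gene ends were shorter, with a median of 1400 bp, against 2400 bp for runs with a start, and 83.4% of them had 1 switch, against 65.8% of runs with a start. Their sides nevertheless had much the same flanks: the 3/5 side touched state 1 or 16 in 80.7% (75.8% in runs with a start) and the 4/6 side touched state 2 or 17 in 77.03% (78.9% in runs with a start). State 8 beside the 4/6 side was less frequent away from gene ends, at 2.15% against 8.82% in runs with a start, and state 18 more frequent, at 15.2% against 6.74% in runs with a start.

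The genes whose starts lay in mixed runs were grouped by 19 lists, each set beside the 32.3% of all genes with an entry. Lists of genes that most cells use had shares above that of all genes. For Polycomb and Trithorax genes (28% to 72%) and DNA repair genes (25.6% to 63.2%) the Wilson interval covered the share of all genes. Splicing factors had 19 of 26 (73.1%), ribosomal protein genes 40 of 59 (67.8%), cell cycle genes 13 of 22 (59.1%), genes of H3.3 and histone chaperones 10 of 17 (58.8%), housekeeping genes 15 of 26 (57.7%), oxidative phosphorylation genes 11 of 20 (55.0%), Polycomb and Trithorax genes 8 of 16 (50%) and DNA repair genes 10 of 23 (43.5%). Among all genes with a start in any run of states 3 to 6, 61.2% had one in a mixed run. Measured the same way, most of these lists lay near or below that share. Polycomb and Trithorax genes stood at 61.5%, cell cycle genes at 59.1%, genes of H3.3 and histone chaperones at 58.8%, housekeeping genes at 57.7% and oxidative phosphorylation genes at 55.0%. Splicing factors, at 73.1%, and ribosomal protein genes, at 72.7%, lay above it. DNA repair genes lay below it at 43.5%, with 8 of 23 genes in runs of states 3 and 5 only. The lists overlap in part and were not tested.

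Lists of regulators and of other cell types differed in where they lay. Of 24 HSC regulators and markers, 8 (33.3%) had a start in a mixed run. Runs of 4000 bp or more held a start of 15 (62.5%), against 3.59% of all genes. Of the 22 with a start in any run, 36.4% had one in a mixed run, against 61.2% of all such genes. Mature lineage genes seldom had a start in a mixed run. The counts were 4 of 24 erythroid genes (16.7%) and 2 of 14 megakaryocyte genes (14.3%). They were 1 of 20 neutrophil and monocyte genes, 1 of 19 T and NK cell genes and 0 of 15 B cell genes. Most of these genes had a start in no run: 16 erythroid, 10 megakaryocyte, 18 neutrophil and monocyte, 17 T and NK cell and 14 B cell genes. Of the 8 erythroid genes with a start in any run, 50% had one in a mixed run, against 61.2% of all such genes. The share was also 50% for the 4 such megakaryocyte genes. The other lineage lists had 1 or 2 such genes each, too few to compare. The tissue lists gave 1 of 18 liver genes, Apoa2, and 1 of 9 genes of stroma and endothelium, Tie1. Here too most genes, 17 of liver and 7 of stroma and endothelium, had a start in no run. None of 13 neuronal genes and none of 28 developmental regulators had a start in a mixed run, and for the 28 developmental regulators this held for every class of run. With 0 of 28, a share of up to 12.1% lies within the Wilson interval.

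**Figure D5:**
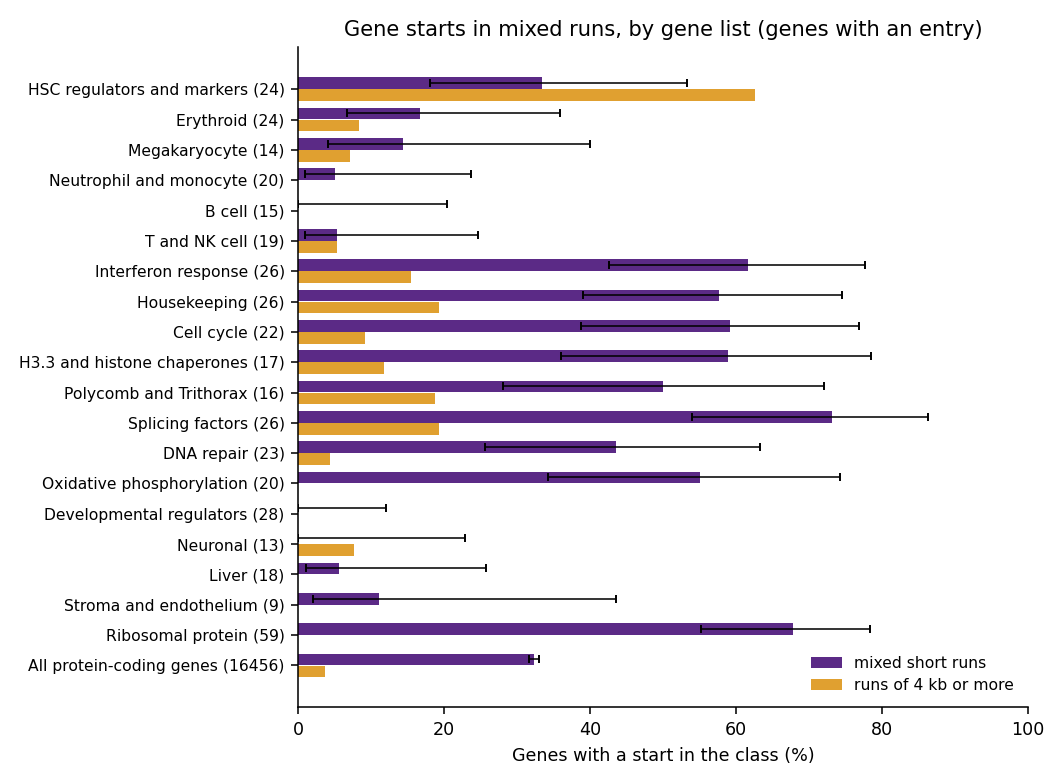
Share of the genes of each list (horizontal axis, %) with a start in mixed runs (upper bar, with its 95% Wilson interval) and in runs of 4000 bp or more (lower bar); the number of genes with an entry stands after each list name. Splicing factors are highest for mixed runs at 73.1%, HSC regulators and markers are highest for runs of 4000 bp or more at 62.5%, and developmental regulators have 0 of 28 genes in either class.

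The HSC genes named by the rule lay in runs of 2400 bp or more. Runx1, a core transcription factor of HSC formation, had a start in state 3 of a run of 2600 bp with the 3/5 part between 4/6 parts, flanked by states 17 and 8. Hoxb4, a homeobox gene active in HSCs, had a start 867 bp into a run of 3600 bp that read 6-5-3-5-6, with state 17 on both flanks. Gfi1b, a transcriptional repressor active in the erythroid and megakaryocyte lineages, had the 3/5 part upstream in a run of 2400 bp, with state 16 before it and state 2 after it. Mecom and Runx1 each also had another start in a run of 4000 bp or more.

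Of the erythroid genes in mixed runs, 3 encode enzymes of heme synthesis, and these 3 had the same pattern. Cpox, Ppox and Uros had starts in runs of 2400 to 2600 bp in which a 3/5 part lay between 4/6 parts. Uros also had a start outside all runs of states 3 to 6. The heme synthesis genes Alad and Urod were not members. Alad had a start in a run of states 3 and 5 only, and Urod in a run of states 4 and 6 only. Tfrc, the transferrin receptor gene, also counted as a housekeeping gene, had the 3/5 part upstream in a run of 2000 bp. The genes of other mature cells lay in runs of 1000 to 2000 bp. Selp, which encodes P-selectin of platelets, had a start 64 bp from the edge of a run of 1000 bp with 800 bp of state 5 and 200 bp of state 6. P2rx1, an ATP-gated channel of platelets, had a start in state 5 of a run of 2000 bp that read 5-6-4. Lyz2, the lysozyme gene of myeloid cells, had a start in state 4 of a run of 1400 bp, and Lat, a signalling adaptor of T cells, one in state 6 of a run of 1800 bp.

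Interferon response genes had 16 of 26 members (61.5%) with a start in a mixed run, and only 1 of the 26 in no run of states 3 to 6. Of those with a start in any run, 64.0% had one in a mixed run, against 61.2% of all such genes. Their mixed runs had a median of 1800 bp, against 2200 bp for all mixed runs. Irf7, the transcription factor that amplifies interferon production, had a start in state 3 of a run of 1600 bp that read 6-5-3, with the 3/5 part downstream. Ifit2, which encodes an interferon-induced antiviral protein, had 1400 bp of states 3 and 5 followed by 200 bp of state 6, with state 17 on both flanks. Oas1a, an oligoadenylate synthetase gene, had a start in state 3 of a run of 1800 bp with 4/6 parts at both ends. Where 2 or more bins of each pair were required, the share of the list was 42.3%, and that of all genes was not computed. All libraries came from mice given poly(I:C), so no level without it was available.

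The genes that handle H3.3 itself were split between classes. Hira, the gene deleted in the KO mice, had its start in a run of states 3 and 5 only on chromosome 16, 3000 bp long and reading 5-3-5-3-5 along the chromosome, so it was not a member. Its partner Ubn1 and the Ubn1 relative Ubn2 were members, and so were Asf1a, a chaperone that hands H3 and H4 to HIRA, and Daxx, the H3.3 chaperone at repetitive DNA. Ubn2 and Asf1a had the 4/6 part between 3/5 parts, in runs of 3200 and 2800 bp. State 16 flanked the Ubn2 run on both sides, and state 1 flanked the Asf1a run on both sides. Daxx had 3000 bp of states 5 and 3 followed by 200 bp of state 4, with state 16 before and state 8 after the run.

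Among the Polycomb genes, Suz12 and Rnf2 had the 3/5 part upstream with state 16 before it, and both starts lay in state 6, in runs of 2000 and 2800 bp. Suz12 encodes a core subunit of PRC2 and Rnf2 a ubiquitin ligase of PRC1. Eed, another core subunit of PRC2, and Ring1, the Rnf2 relative, had the 3/5 part downstream. Of the splicing genes, Sf3a1 and Sf3a3 had the 3/5 part upstream, and Sf3a2 and Sf3b2 had it between 4/6 parts. All 4 encode subunits of the U2 snRNP. The replication genes Mcm3 and Mcm5 had the 3/5 part upstream in runs of 2000 bp, and Mki67, the proliferation marker, had it downstream in a run of 3000 bp. Plk1, a mitotic kinase gene, had it between 4/6 parts.

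The other named members showed each of the orders as well. Of the housekeeping genes, Sdha and Gusb had a 3/5 part between 4/6 parts with state 17 on both flanks, and so did Fance and Fancg of the Fanconi repair pathway. Brca1, a gene of homologous recombination, had 3 switches in a run of 3600 bp, and Rad51c, of the same pathway, had the 3/5 part downstream in a run of 1400 bp. The respiratory complex I genes Ndufb3, Ndufs7 and Ndufv1 had the 3/5 part upstream, and Ndufa4 had it between 4/6 parts. Of the ribosomal protein genes, Rpl10a had the 3/5 part downstream, Rpl13 upstream and Rpl12 between 4/6 parts, and Rpl11 had 3 switches. Apoa2 and Tie1, from the liver and endothelium lists, both had the 3/5 part downstream.

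Within the lists the order of the parts was counted only for runs with 1 switch and starts on 1 strand. The 3/5 part was upstream in 6 of 6 such runs of oxidative phosphorylation genes, 6 of 7 of cell cycle genes, 6 of 8 of Polycomb and Trithorax genes, 15 of 24 of ribosomal protein genes and 7 of 13 of interferon response genes. These counts are too small to separate the lists from the 65.2% of all such runs.

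Promoters of mixed runs were rich in GC and CpG, as far as 300 bases around the start show. The 6194 promoters with a start in a mixed run had a median GC content of 62.3% and a median ratio of observed to expected CpG of 0.804, and 80.6% had a ratio of at least 0.6. The median ratio was 0.760 for runs of states 3 and 5 only, 0.750 for runs of states 4 and 6 only, 0.817 for runs of 4000 bp or more, 0.245 for starts in no run of states 3 to 6 and 0.586 for all 20084 entries. The SD of the median ratio of mixed runs over autosomes was 0.024.

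Inside mixed runs the pair under the start went with the promoter's composition. Promoters with the start in state 4 or 6 had a median CpG ratio of 0.834 and a GC content of 64.3%, and those with the start in state 3 or 5 had 0.759 and 59.7%. Runs with 4/6 between 3/5 had the most CpG-rich promoters, at 0.857 and 68.0% GC, and runs with 3/5 between 4/6 had 0.797 and 61.0% GC. The order of the parts along the gene made no such difference, with ratios of 0.780 for the 3/5 part upstream and 0.778 for it downstream. By list, the median ratio in mixed runs was 0.393 over 21 promoters of interferon response genes, 0.510 over 8 of HSC regulators and 0.967 over 23 of splicing factors. Ratios below that of the interferon list came from lists with 1 or 2 promoters each, at 0.229 for megakaryocyte, 0.310 for T and NK cell, 0.289 for stroma and endothelium, 0.068 for neutrophil and monocyte and 0.049 for liver genes.

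Short motifs were counted on both strands of the same 300 bases, as letters only. They were CCGGAA for ETS factors, GCGCATGC for NRF1, AAGATGGCG for YY1, TGACGTCA for CREB or ATF, CACGTG for the E-box of MYC and USF, GGGCGG for SP and KLF factors, CCAAT for NFY, TATAAA for the TATA box, AGATAA for GATA factors, TGTGGT for RUNX factors, GAAANNGAA for the spacing of an interferon response element and GAGGAAGT for PU.1. Some of these overlap in sequence, as ETS and PU.1 sites share their core, and the shares were not adjusted for GC content.

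GC-rich motifs were more frequent in mixed runs than over all entries, and AT-rich motifs less so. GGGCGG occurred in 69.4% of the promoters of mixed runs, 47.0% of all entries and 25.0% of starts in no run, and CCGGAA in 32.2% of promoters of mixed runs, 19.1% of all entries and 6.55% of starts in no run. The rarer GCGCATGC stood at 6.02% in mixed runs, 3.54% over all entries and 1.09% in no run, and AAGATGGCG at 3.65% in mixed runs, 1.83% over all entries and 0.214% in no run. TATAAA was found in 5.28% of promoters of mixed runs, 12.7% of all entries and 19.8% of starts in no run, and AGATAA in 5.41% of promoters of mixed runs, 9.57% of all entries and 13.9% of starts in no run. TGTGGT was at 11.1% in mixed runs, 14.8% over all entries and 18.1% in no run. CCAAT varied little, at 38.4% in mixed runs, 38.1% over all entries and 37.9% in no run. TGACGTCA was found in 3.63% of promoters of mixed runs and 2.30% of all entries, CACGTG in 10.8% of promoters of mixed runs and 7.89% of all entries, and GAGGAAGT in 3.04% of promoters of mixed runs and 3.18% of all entries. Set against runs of a single pair the differences were smaller and depended on the motif. CCGGAA stood at 32.2% in mixed runs, 30.8% in runs of states 3 and 5 only and 31.5% in runs of states 4 and 6 only, with overlapping intervals. GGGCGG was at 69.4% in mixed runs (Wilson interval 68.3% to 70.6%), 65.3% in runs of states 3 and 5 only (63.1% to 67.5%) and 63.5% in runs of states 4 and 6 only (61.1% to 65.9%). AAGATGGCG was at 3.65% in mixed runs (3.21% to 4.14%), 2.23% in runs of states 3 and 5 only (1.64% to 3.03%) and 4.31% in runs of states 4 and 6 only (3.40% to 5.45%). TATAAA was at 5.28% in mixed runs (4.75% to 5.86%), 7.48% in runs of states 3 and 5 only (6.35% to 8.79%) and 5.95% in runs of states 4 and 6 only (4.87% to 7.25%). TGTGGT was at 11.1% in mixed runs (10.3% to 11.9%), 13.7% in runs of states 3 and 5 only (12.2% to 15.3%) and 13.5% in runs of states 4 and 6 only (11.8% to 15.3%).

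GAAANNGAA, which is spelled out 3 times in the Isg15 promoter above, occurred in 11 of the 21 promoters of interferon response genes in mixed runs (52.4%). Its share was 6.86% over all promoters of mixed runs and 8.08% over all entries. Ribosomal protein promoters in mixed runs held it in 11 of 47 cases (23.4%), and housekeeping promoters in 1 of 17.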

How the data were processed

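The deposited values are chromatin state numbers, a category with no order, counts or scores, made by the authors and given per segment in bins of 200 bp. Per the file headers the states are ordered by emission. The files' names call the map ChromHMM and tie it to WT HSC H3.3. Bowtie2, MACS2, HOMER, deepTools and the build mm10 are listed, with no version or role, in the submitters' processing notes. Which tracks and libraries entered the model is not given. Depth is unknown, so no interval or floor that needs it is given, and 1 map allows no test between conditions. Such a model assigns neighbouring bins together, so a run and its flanks are not independent.

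Runs, switches, flanks and starts were computed with Python 3.11.15, pandas 2.3.3 and numpy 2.4.6. Figures were drawn with matplotlib 3.10.9. The code for runs and orientation was tested on simulated segments. Genes and promoters came from RefSeq tables of GRCm38.p6, the assembly of mm10. Starts were taken from promoter entries, which cover 18 autosomes. Intervals on shares are Wilson intervals at 95% confidence and include counting error alone.

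The members and lists were chosen with earlier results of these data known. Named genes were Hira, the first 4 members of each list with a start in a mixed run, the 10 genes in runs with most switches and the 4 in the longest runs. Genes of multigene families may have ambiguous signal where copies are near identical. Alternatives were stricter content and length limits, chromosome X, the expanded file, starts within 1 kb, all annotated genes, both gene ends and 1 promoter per run.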

Additional observations from a re-analysis of the deposited data

How the results depend on the processing

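No share reversed under the alternatives tried. Requiring 2 bins of each pair left 6131 runs, within 1.5 times the number reported. It gave 1 switch in 63.2%, the same flank on both sides in 22.1% and a start in 71.1%. With runs shorter than 3000 bp the median length was 2000 bp, 1 switch occurred in 74.2% and a start in 65.1%. With runs shorter than 5000 bp, 1 switch occurred in 67.7%. The share of runs with a start was 68.9% when starts within 1000 bp counted, 70.9% with all annotated genes and 71.9% with both ends of each gene record. Each of these lengths and shares moved by more than its spread or interval, and the cause was not tested. The share of runs with the 3/5 part downstream stayed between 34.47% and 34.85% under the alternatives run for it. Adding chromosome X moved no value beyond its spread. The dense and expanded files held the same state in all 12313718 autosomal bins, so the expanded file gave the same values and tests nothing. With 2 bins of each pair, the list shares were 42.3% for interferon response genes and 0% for neutrophil and monocyte genes and for stroma and endothelium genes. Some other lists also fell but stayed within their wide intervals. Among them were H3.3 and histone chaperones at 41.2%, Polycomb and Trithorax at 37.5% and megakaryocyte genes at 7.14%. The share of all genes was not computed at this setting. The map holds no read counts, so what depth limits cannot be stated. No paired analysis was possible because the single map has no replicates.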

Other observations

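Chromosome X, which the rule leaves out, held 234 runs of the same kind among 561 runs of states 3 to 6, at 1.37 per Mb and with a median length of 2000 bp. Their 3/5 side touched state 1 or 16 in 75.2% of runs with 1 switch, and their 4/6 side touched state 2 or 17 in 73.8%. A start lay in 168 of them (71.8%), and the 3/5 part was upstream in 61 of 91 runs with 1 switch and starts on 1 strand (67.0%).

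Of 919 microRNA hairpins on the autosomes in the RefSeq table, 59 (6.42%) had their middle in a mixed run, and mixed runs made up 0.657% of autosomal bins. Among these, chosen after their values were seen, Mir219a-1 and Mir219c lay in the run of 2000 bp at the Ring1 start. Of 9291 long noncoding RNA genes with a promoter entry, 759 (8.17%) had a start in a mixed run, against 32.3% of protein-coding genes. These starts lay in 747 mixed runs, of which 524 (70.2%) also held a coding start.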
